A study of Mus musculus with 23 samples.

Results

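Regulatory T cells of the small intestine were set against the conventional CD4+ T cells of the same tissue. The arrays labelled TregLPno1 and TregLPno2 hold CD4+ Foxp3-GFP+ cells of the small intestinal lamina propria (LP Treg), and TconvLPno1 and TconvLPno2 hold the CD4+ Foxp3-GFP- cells (LP Tconv). They are 4 of the 23 arrays of the series and were chosen by their titles alone. Both populations came from male C57BL/6-Foxp3/GFP mice of 6 to 10 weeks, whose GFP reports transcription of Foxp3. Cells were gated as CD3+, B220-, CD8a- and CD11b/c-, then split by GFP, and each array holds RNA pooled from 4 to 6 mice. RNA was amplified in 2 rounds before hybridisation to Affymetrix M430v2 arrays. The labels do not say whether arrays with the same number came from the same mice, so the spread between arrays is one between pools.

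Other pairs of the series serve for comparison, again from male mice of 6 to 10 weeks with the same CD3+, B220-, CD8a-, CD11b/c- gate. In the homeostatic pair, BDC2.5/NOD CD4+ T cells without Foxp3-GFP had been transferred into NOD RAG-/- mice, which lack lymphocytes of their own. Foxp3-GFP+ and Foxp3-GFP- cells were sorted from spleen and lymph nodes after 14 days (3 arrays each, 2 to 3 mice per array). In the DEC pair, CD4+CD25- T cells of HA6.5/Thy1.2/RAG-/-/Balb/c mice had been transferred into Balb/c mice given 1 injection of 50 ng DEC-HAPeptide per mouse. CD25+ and CD25- cells were sorted from spleen and lymph nodes 3 weeks later (3 and 4 arrays, 5 to 10 mice per array), so this pair was split by CD25 and not by Foxp3. The remaining 6 arrays hold Foxp3-GFP+ cells of peripheral lymph nodes from the reporter mice, 2 each for the CD103+Klrg1+ subset, the CD103+Klrg1- subset and the CD103-Klrg1- subset, with 4 to 6 mice per array.

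The lamina propria is the connective layer under the gut epithelium. It holds many CD4+ T cells that have met antigen, among them T helper 17 cells, which make IL-17 in response to gut bacteria, and regulatory T cells, which restrain inflammation against food and microbes. Regulatory T cells depend on the transcription factor Foxp3 and on IL-2, which they take up through the high-affinity receptor chain CD25 and do not make themselves. Their known means of restraint in the gut include the cytokine IL-10 and the release of active TGF-beta from its latent form by the integrin alpha-v beta-8.

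Levels below are log2 of the deposited intensity, and a difference is the mean log2 level of LP Treg minus that of LP Tconv, with its standard error. A gene is called when limma's adjusted p (Benjamini-Hochberg, over 12516 tested genes, with the spread shared over all 23 arrays) lies under 0.05. A level under 6.27 log2, the median of all values, is treated as dim. Where the lower group was dim, background can hold up its value, so the fold is given as "at least".

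The 2 LP Treg arrays correlated at r = 0.976 over the tested genes, and the 2 LP Tconv arrays at r = 0.926. LP Tconv 1 correlated at 0.945 and 0.953 with LP Treg 1 and 2, above its correlation with LP Tconv 2. The 2 Treg arrays were over 4-fold apart in 10 tested genes and the 2 Tconv arrays in 129. The 3' minus 5' signal of Gapdh, a sign of RNA integrity, was 2.42 and 2.65 log2 in LP Treg and 3.17 and 1.63 log2 in LP Tconv. T cell identity was present in both populations: Cd3e, a chain of the T cell receptor complex, read 11.10 and 11.50 in LP Treg and 11.74 and 10.41 in LP Tconv, and Cd4 read 9.96 and 9.98 against 10.41 and 10.46. Cd8a was low in both, at 6.71 and 7.01 in LP Treg and 6.97 and 6.86 in LP Tconv.

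Of the tested members of 6 marker lists of other cells, 0 were called (limma). The summed intensities (not log2) of the B and plasma cell list and of the myeloid list were higher in LP Treg with no overlap of the arrays. Such a sum is weighted to the brightest genes of a list. At an unadjusted p under 0.05, 2 B and plasma cell markers were higher and 1 lower in LP Treg, 1 of the CD8, gamma-delta and NK list and 1 of the stromal list were lower, and 0 of the other lists passed. The summed intensity of 12 B and plasma cell markers was 2278 to 3095.5 in LP Treg and 1644 to 2208 in LP Tconv, and 3 of the 12 were dim on all 4 arrays. Cd79b, a chain of the B cell receptor complex, read 7.54 and 7.78 in LP Treg and 5.64 and 6.52 in LP Tconv (1.58 ± 0.50, adjusted p = 0.136), and the immunoglobulin joining chain Jchain 10.90 and 9.97 in LP Treg and 10.02 and 8.90 in LP Tconv. The sum over 18 myeloid markers was 10436 to 12103 in LP Treg and 8115 to 9823 in LP Tconv, with 7 dim on all 4 arrays. Its brightest member Ctss read 12.93 and 13.23 in LP Treg and 12.57 and 12.74 in LP Tconv. The mean log2 level of the 17 tested myeloid markers overlapped, at 7.15 and 7.17 in LP Treg and 6.91 and 7.22 in LP Tconv. For the 9 tested B and plasma cell markers this mean was 7.30 and 7.33 in LP Treg and 7.24 and 7.12 in LP Tconv. For 17 epithelial markers the sum was 1221 to 1427 in LP Treg and 1243 to 1275 in LP Tconv, with 12 dim on all 4. This sum takes Epcam from its brightest probe set, which differed by 0.18. The other Epcam probe set read 8.09 and 8.83 in LP Treg and 6.20 and 6.16 in LP Tconv, a difference of 2.28. For 10 markers of CD8, gamma-delta and NK cells the sum was 4502 to 6187 in LP Treg and 4764 to 5230 in LP Tconv, with 6 dim on all 4. Gzma, which was bright in both populations, makes up most of it. The lists for stroma and endothelium (10 genes) and for mast and red cells (6 genes) summed to 814 to 910 and 299 to 313 in LP Treg, and to 822 to 868 and 303 to 416 in LP Tconv. Variable segments of the antigen receptors of gamma-delta T cells and B cells were called as well, chosen after their values were seen. Trgv1 and Trgv4 of the gamma-delta T cell receptor were lower in LP Treg, and 1 segment of the immunoglobulin heavy chain was higher. Which cells these transcripts came from was not tested, nor was the part of other cell types in the results.

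Of the 6 marker genes, Foxp3, Itgb8, Klrg1 and Il10 were higher in LP Treg, and the T helper cytokines Il17a and Il21 were higher in LP Tconv. Foxp3 read 11.34 and 11.09 log2 in LP Treg and 4.73 and 4.57 in LP Tconv. It is the gene behind the sort, so its difference of 6.56 ± 0.36, at least 94.4-fold (adjusted p = 1.16e-08), checks the labels and is no further result. In the arrays of sorted populations, fewer cells that express a gene and less RNA per cell cannot be told apart, here and for every gene that follows.

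Itgb8, which encodes the beta-8 integrin chain, read 10.58 and 10.53 in LP Treg and 4.25 and 3.94 in LP Tconv. The GFP+ arrays were bright and alike, the GFP- arrays dim, and the difference of 6.46 ± 0.48 made at least 88.0-fold (adjusted p = 2.08e-07). Klrg1, an inhibitory lectin-like receptor that binds cadherins, read 13.26 and 13.50 in LP Treg and 8.11 and 7.97 in LP Tconv. It was 40.6-fold higher (5.34 ± 0.41, adjusted p = 2.47e-07), with both populations above the dim range. Il10, the anti-inflammatory cytokine, read 14.01 and 13.53 in LP Treg and 10.53 and 9.04 in LP Tconv. It was 15.8-fold higher in LP Treg (3.98 ± 0.50, adjusted p = 7.95e-05), and its level in the conventional cells was well above the dim range. With the 4 LP arrays fitted alone, the adjusted p of Il10 was 0.122 (limma).

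Il17a, the defining cytokine of T helper 17 cells, read 7.05 and 7.26 in LP Treg and 12.17 and 10.65 in LP Tconv. It was 19.1-fold lower in LP Treg (-4.25 ± 0.33, adjusted p = 2.47e-07), and the LP Tconv arrays lay apart from each other by more than the LP Treg arrays did. Il21, a cytokine of T follicular helper and T helper 17 cells that acts on B cells, read 6.43 and 5.89 in LP Treg and 12.13 and 10.17 in LP Tconv. It was at least 31.8-fold lower in LP Treg (-4.99 ± 0.70, adjusted p = 0.000263), and a second Il21 probe set differed by -1.36.

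**Figure D1:**
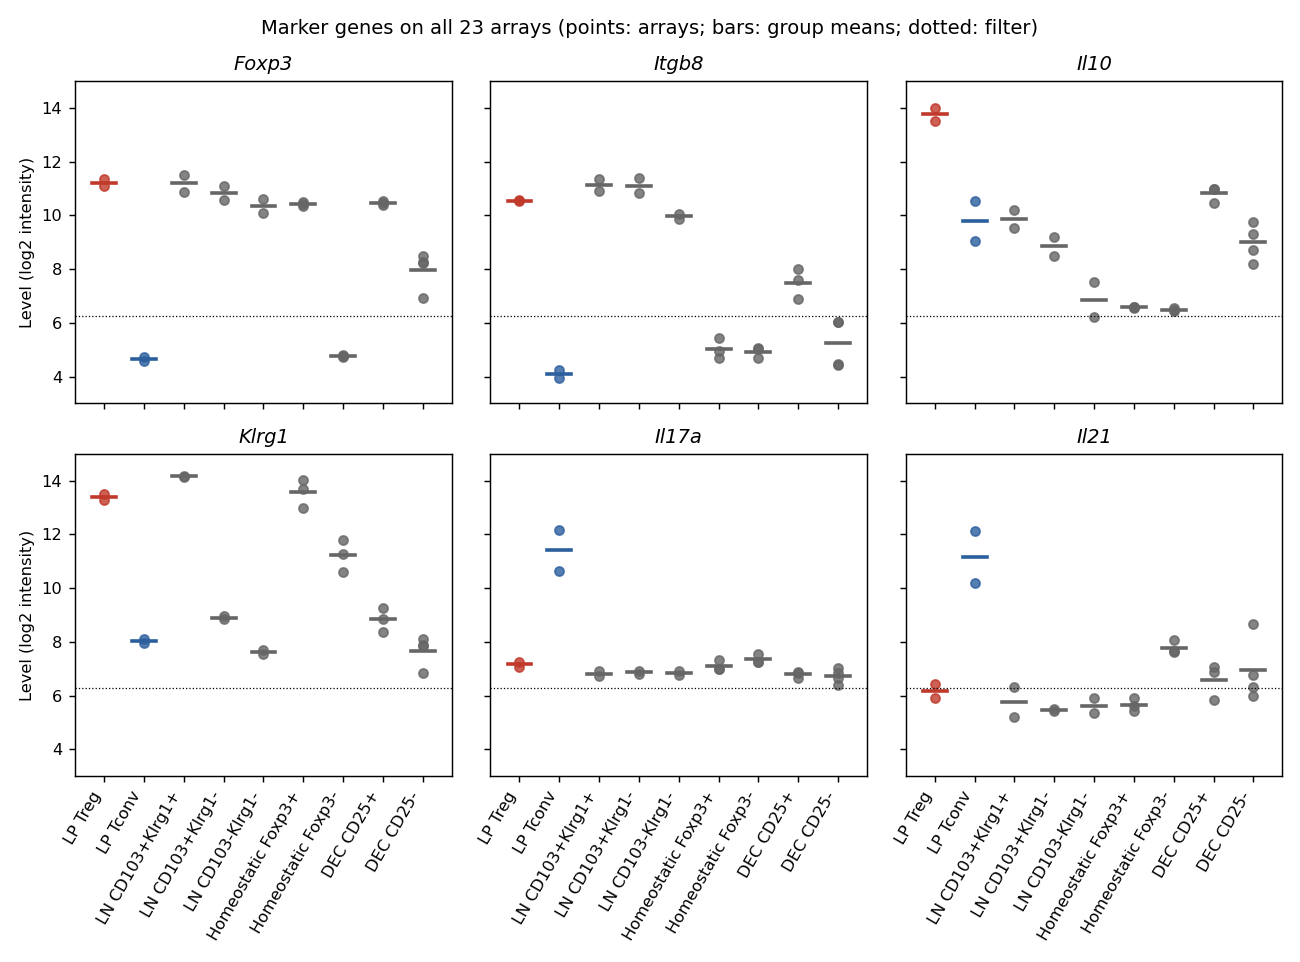
Levels (log2 intensity) of Foxp3, Itgb8, Il10, Klrg1, Il17a and Il21 on the 23 arrays, in 9 groups; points are arrays, bars are group means and the dotted line is the filter at 6.27. The 2 LP Treg arrays lie above the 2 LP Tconv arrays for the first 4 genes and below them for Il17a and Il21.

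Across the groups of the series, the marker levels had different reach. Foxp3 averaged 11.21 in LP Treg, 10.35 to 11.20 in the lymph node Treg subsets, 10.42 in homeostatic Foxp3+ cells and 10.47 in DEC CD25+ cells, against 4.65 in LP Tconv, 4.76 in homeostatic Foxp3- cells and 7.97 in DEC CD25- cells. Itgb8 averaged 10.55 in LP Treg and 11.14, 11.11 and 9.97 in the CD103+Klrg1+, CD103+Klrg1- and CD103-Klrg1- lymph node Treg. It was dim in homeostatic Foxp3+ cells (5.01) and reached 7.49 in DEC CD25+ cells. The Foxp3+ cells taken straight from the reporter mice were bright for Itgb8, and those recovered from RAG-/- hosts were dim.

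Il10 averaged 13.77 in LP Treg, 9.86, 8.85 and 6.85 in the CD103+Klrg1+, CD103+Klrg1- and CD103-Klrg1- lymph node Treg, 6.57 in homeostatic Foxp3+ cells and 10.82 in DEC CD25+ cells. LP Tconv, at 9.78, lay among the lymph node Treg in this gene. Klrg1 averaged 13.38 in LP Treg, near the 14.16 of the lymph node subset sorted for the Klrg1 protein and the 13.57 of homeostatic Foxp3+ cells. Il17a averaged 11.41 in LP Tconv and 6.72 to 7.35 in the 8 other groups, LP Treg included. Il21 averaged 11.15 in LP Tconv, followed by homeostatic Foxp3- cells at 7.78.

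The sequences before the transcription starts of Foxp3, Itgb8, Il17a and Il21 are shown because these genes lay on opposite sides of the comparison. They are the 250 bases before the start from RefSeq (build GRCm38.p6), 5' to 3' on the gene's strand, with matches to searched motifs in capitals. The RefSeq table held a window for 4 of the 6 markers. Foxp3 had 2 windows, of which the second is shown; the first held none of the 5 motifs named next.
Foxp3 (chrX:7580233-7580482, + strand): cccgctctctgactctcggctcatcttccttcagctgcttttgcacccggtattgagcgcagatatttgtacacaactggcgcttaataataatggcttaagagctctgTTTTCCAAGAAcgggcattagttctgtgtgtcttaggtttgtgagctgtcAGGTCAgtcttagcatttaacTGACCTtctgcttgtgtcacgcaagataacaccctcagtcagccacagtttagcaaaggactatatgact
Itgb8 (chr12:119238277-119238526, - strand): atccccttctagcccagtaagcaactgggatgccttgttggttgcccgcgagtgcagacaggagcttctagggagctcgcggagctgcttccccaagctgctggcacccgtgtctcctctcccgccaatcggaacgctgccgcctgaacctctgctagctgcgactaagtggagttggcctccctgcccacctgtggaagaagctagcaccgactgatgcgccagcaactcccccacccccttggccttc
Il17a (chr1:20730655-20730904, + strand): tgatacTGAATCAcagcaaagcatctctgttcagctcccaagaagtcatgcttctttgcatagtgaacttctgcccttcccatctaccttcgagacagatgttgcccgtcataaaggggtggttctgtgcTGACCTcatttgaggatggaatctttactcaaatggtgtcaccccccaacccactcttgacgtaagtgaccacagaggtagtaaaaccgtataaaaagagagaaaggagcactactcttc
Il21 (chr3:37232637-37232886, - strand): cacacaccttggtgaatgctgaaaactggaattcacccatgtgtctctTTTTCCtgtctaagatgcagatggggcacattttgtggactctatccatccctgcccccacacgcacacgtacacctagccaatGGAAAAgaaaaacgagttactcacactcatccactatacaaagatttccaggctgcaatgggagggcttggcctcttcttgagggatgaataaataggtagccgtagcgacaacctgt

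The letters searched on both strands were TGTTTAC for forkhead factors, TGANTCA for AP-1, AGGTCA for ROR factors, TTCNNNGAA for STAT factors and GGAAAA for NFAT. The Foxp3 window held AGGTCA 91 to 86 bases before the start, its reverse complement 70 to 65 bases before it, and a STAT match 139 to 131 bases before it that overlaps an NFAT match at 141 to 136. The Il17a window held an AP-1 match at 244 to 238 and a ROR match at 120 to 115 that reads in reverse complement. The Il21 window held NFAT matches at 202 to 197 and 118 to 113, and the Itgb8 window held none of the 5 motifs.

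The shares of windows with these letters are given for the called genes beside the background, with no test. The forkhead letters stood in 4.21% of the 190 windows of genes higher in LP Treg, in 1.64% of the 183 windows of genes lower in LP Treg, in 2.43% of the windows of all tested genes and in 3.17% of all 32851 windows. In the same order, the AP-1 letters stood in 7.37%, 6.56%, 4.82% and 6.75%, the ROR letters in 9.47%, 9.84%, 11.3% and 14.0%, the STAT letters in 7.89%, 4.92%, 5.93% and 7.02%, and the NFAT letters in 15.8%, 16.9%, 18.5% and 20.4%. A match is a run of letters and was not tested as a binding site. The TATA box letters TATAAA were searched too, on the gene's strand, and are not capitalised. They stood in 3.68%, 5.46%, 4.38% and 7.59% in that order, and in the first Foxp3 window and the Il17a window.

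Of the 12516 tested genes, 338 were called, which is 2.70% of them: 177 (1.41%) were higher and 161 (1.29%) lower in LP Treg. These shares are the background for the counts of called list members below, and some genes belong to several lists. The median difference over all tested genes was -0.01. All 338 had non-overlapping arrays, but with 2 arrays against 2 this is a weak criterion, since 16.4% of tested genes had both LP Treg arrays above both LP Tconv arrays and 14.5% had both below. At least 4-fold differences were found for 58 higher and 51 lower genes, and at least 16-fold for 5 higher and 3 lower genes. In 48 of the higher genes LP Tconv was dim, and in 48 of the lower genes LP Treg was dim. The count depended on single arrays: it was 173 without LP Treg 1, 230 without LP Treg 2, 513 without LP Tconv 1 and 236 without LP Tconv 2.

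**Figure D2:**
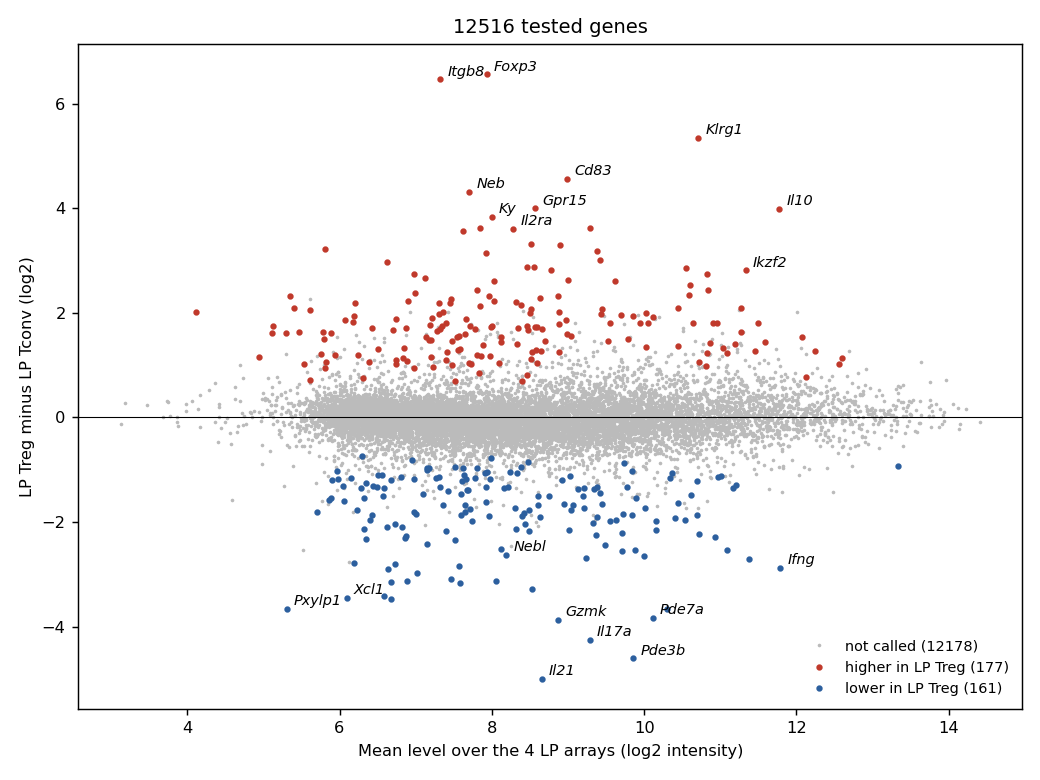
Difference between LP Treg and LP Tconv (log2) against the mean level over the 4 LP arrays (log2 intensity) for the 12516 tested genes. Red points are the 177 genes called higher in LP Treg, blue points the 161 called lower, and Foxp3 and Itgb8 lie at the top.

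Further probe sets were counted only where the mean of LP Treg or of LP Tconv lay above the dim range. Of the called genes, 129 had such probe sets, 216 in all. Of these probe sets, 206 differed in the same direction, 186 of them without overlap between the arrays, and 10 pointed the other way. The genes with an opposed probe set include Ikzf1 and Tgfbr3, described below. Further probe sets that were dim in both populations are not in these counts. Among them, a Ryr1 probe set differed by 0.05 and a Phlpp2 probe set by 0.03, both against the direction of the gene. When all probe sets of a gene were averaged, the difference of 22 of the 93 called genes named here moved by over 1.5-fold. Of the 22, only Ikzf1 lost its call (-0.59, adjusted p = 0.275). The averaged difference was -3.18 in Il21, 2.64 in Il2ra, 0.99 in Tgfbr1, 1.625 in Ikzf4, 1.37 in Tnfrsf1b, -1.75 in Il1rl2 and -2.30 in Sema4a.

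Treg identity genes had calls in 1 direction. Of 23 tested members 13 rose, 0 fell and 10 did not pass, and their median difference was 1.62. Of all tested genes, 1.41% were called higher. The 13 and the median include Foxp3, the gene behind the sort, which is no further result. Il2ra, which encodes CD25, read 9.69 and 10.48 in LP Treg and 6.67 and 6.28 in LP Tconv (3.60 ± 0.38, 12.2-fold, adjusted p = 1.52e-05). Gpr83, an orphan G protein-coupled receptor typical of Treg, read 11.00 and 11.20 in LP Treg and 7.42 and 7.54 in LP Tconv (3.62 ± 0.35, 12.3-fold, adjusted p = 5.42e-06). Both populations were tight for Gpr83, with over 3 log2 between them.

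The Ikaros family members that work with Foxp3 also rose. Ikzf2 (Helios) read 12.87 and 12.60 in LP Treg and 10.20 and 9.65 in LP Tconv (2.82 ± 0.18, 7.04-fold, adjusted p = 6.01e-08), and Ikzf4 (Eos) read 9.86 and 10.52 in LP Treg and 7.25 and 7.48 in LP Tconv (2.83 ± 0.41, 7.09-fold, adjusted p = 0.000403). Helios was thus well above the dim range in the conventional cells too. Nrp1, a semaphorin co-receptor found on thymus-derived Treg, read 9.68 and 9.86 in LP Treg and 7.73 and 7.24 in LP Tconv (2.28 ± 0.40, 4.87-fold, adjusted p = 0.00224). Plagl1, a zinc finger transcription factor, read 9.59 and 9.20 in LP Treg and 6.69 and 4.99 in LP Tconv, at least 11.8-fold higher (3.56 ± 0.47, adjusted p = 0.000136). This rests on 1 probe set: the other 2 differed by 0.18 and 0.23, and the mean of all 3 by 1.32 (adjusted p = 0.0268). Itih5 rose by 7.29-fold (2.87 ± 0.42, adjusted p = 0.000425) and Swap70 by 2.74-fold (1.46 ± 0.26, adjusted p = 0.00225).

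The members that did not pass include genes that are bright in both populations. Ctla4, the inhibitory receptor that competes for CD80 and CD86, read 14.53 and 13.81 in LP Treg and 13.43 and 12.78 in LP Tconv (1.07 ± 0.74, adjusted p = 0.913). The costimulator Icos read 14.34 and 14.32 in LP Treg and 14.28 and 12.93 in LP Tconv (0.72 ± 0.31, adjusted p = 0.445). Ctla4 separated the 2 homeostatic populations (3.06, adjusted p = 0.0084), but the 2 differences were not called apart (-1.99 ± 0.95, adjusted p = 0.91). Itgae, which encodes CD103, read 13.14 and 12.87 in LP Treg and 10.36 and 11.63 in LP Tconv. Its difference of 2.01 ± 0.61 did not pass (adjusted p = 0.113), although the arrays did not overlap and a second probe set differed by 2.19.

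Of the suppressor genes, 5 of 18 tested rose, 0 fell and 13 did not pass, with a median of 1.08. Beside Il10 and Itgb8 these were Ebi3, a subunit of the cytokines IL-27 and IL-35, Lag3, an inhibitory receptor for MHC class II, and Entpd1 (CD39), which degrades extracellular ATP. Ebi3 read 9.16 and 9.08 in LP Treg and 6.47 and 7.13 in LP Tconv (2.32 ± 0.42, 5.00-fold, adjusted p = 0.00318). Entpd1 read 8.42 and 8.19 in LP Treg and 6.27 and 7.27 in LP Tconv (1.53 ± 0.34, 2.89-fold, adjusted p = 0.0146), and Lag3 rose by at least 2.13-fold (1.09 ± 0.21, adjusted p = 0.0048). The calls of Lag3 and Entpd1 were lost when 1 array was left out, with adjusted p up to 0.0971 and 0.173. Tgfb1, the ligand that alpha-v beta-8 activates, read 7.05 and 7.13 in LP Treg and 7.20 and 6.97 in LP Tconv (0.00 ± 0.17). Itgav, the partner chain of Itgb8, read 11.27 and 11.26 in LP Treg and 10.35 and 10.19 in LP Tconv (0.99 ± 0.29, adjusted p = 0.0995). Gzmb, a cytotoxic protease, was bright in both, at 13.50 and 12.94 in LP Treg and 12.35 and 12.83 in LP Tconv (0.63 ± 0.31, adjusted p = 0.626).

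The TGF-beta pathway list, which includes Itgb8, showed calls in both directions. Of 21 tested members 2 rose (Itgb8 and Tgfbr1), 1 fell and 18 did not pass, with a median of -0.05. Tgfbr1, the type I receptor kinase, read 12.29 and 12.34 in LP Treg and 10.23 and 10.22 in LP Tconv (2.09 ± 0.39, 4.25-fold, adjusted p = 0.00373). Each population was nearly uniform for it. Tgfbr3, the co-receptor betaglycan, read 6.96 and 6.84 in LP Treg and 9.94 and 10.40 in LP Tconv, 9.65-fold lower (-3.27 ± 0.62, adjusted p = 0.00462). Another Tgfbr3 probe set differed by 0.26, and the call was lost without LP Tconv 2 (adjusted p = 0.0578). The type II receptor Tgfbr2 read 10.98 and 10.94 in LP Treg and 12.06 and 12.60 in LP Tconv (-1.37 ± 0.42, adjusted p = 0.128).

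Helper cytokines fell or did not pass: of 16 tested members 0 rose, 5 fell and 11 did not pass, with a median of -0.29. Ifng, the T helper 1 cytokine, read 10.21 and 10.49 in LP Treg and 13.55 and 12.88 in LP Tconv, 7.30-fold lower (-2.87 ± 0.41, adjusted p = 0.000352). Ifng was therefore well above the dim range in LP Treg too. Il2, the T cell growth factor that Foxp3 represses, read 5.44 and 5.71 in LP Treg and 7.84 and 7.50 in LP Tconv, at least 4.27-fold lower (-2.09 ± 0.23, adjusted p = 2.31e-05). Il4, the T helper 2 cytokine, was dim in LP Treg and close to the dim range in LP Tconv at 6.44 and 6.51 (-1.01 ± 0.22, at least 2.02-fold lower, adjusted p = 0.0129), and its call was lost without some single arrays (adjusted p up to 0.151). Tnf read 7.22 and 7.82 in LP Treg and 8.16 and 8.57 in LP Tconv (-0.85 ± 0.32, adjusted p = 0.308).

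Among interleukin and interferon receptors, 2 of 29 tested members rose, 6 fell and 21 did not pass (median -0.21). The 6 that fell bind IL-1 family cytokines, IL-12 or IL-17 family cytokines. Il18r1 read 9.69 and 9.89 in LP Treg and 12.33 and 11.82 in LP Tconv (-2.28 ± 0.27, 4.87-fold lower, adjusted p = 4.81e-05). Its partner chain Il18rap read 9.20 and 8.98 in LP Treg and 10.53 and 11.94 in LP Tconv (-2.14 ± 0.30, 4.42-fold lower, adjusted p = 0.000261). Both chains of the IL-18 receptor were thus lower and still above the dim range in LP Treg. Il1rl2, the IL-36 receptor, read 5.17 and 5.03 in LP Treg and 8.61 and 7.89 in LP Tconv (-3.15 ± 0.31, at least 8.87-fold lower, adjusted p = 6.17e-06). Il1r1, the IL-1 receptor of T helper 17 cells, fell 2.22-fold (adjusted p = 0.00137), Il12rb2, the signalling chain of the IL-12 receptor, at least 2.48-fold (adjusted p = 0.00132) and Il17re, a receptor for IL-17C, 2.25-fold (adjusted p = 0.000968). Beside Il2ra, Il17rb, a chain of the IL-25 receptor, rose 2.60-fold (adjusted p = 0.0174), a call lost without some single arrays (adjusted p up to 0.337). Il7r, the IL-7 receptor chain, was bright in both, at 12.89 and 12.70 in LP Treg and 13.43 and 13.33 in LP Tconv (-0.58 ± 0.23, adjusted p = 0.326).

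Of the chemokine and homing receptors, 5 of 25 tested rose, 2 fell and 18 did not pass, with a median of -0.11. Gpr15, which guides T cells to the large intestine in mice, read 10.68 and 10.46 in LP Treg and 6.45 and 6.69 in LP Tconv (4.00 ± 0.38, 16.0-fold, adjusted p = 4.12e-06). Ccr4, a receptor for CCL17 and CCL22, read 9.02 and 8.15 in LP Treg and 6.98 and 6.69 in LP Tconv (1.75 ± 0.23, 3.36-fold, adjusted p = 0.000118). Ccr8, a receptor for CCL1, read 8.15 and 7.21 in LP Treg and was dim in LP Tconv (1.87 ± 0.31, at least 3.66-fold, adjusted p = 0.00121). Ccr2 rose 3.51-fold (adjusted p = 0.01) and the atypical receptor Ccrl2 6.07-fold (adjusted p = 0.0217), both calls lost without some single arrays (adjusted p up to 0.245 and 0.28). Cxcr6, the receptor for CXCL16, read 9.08 and 8.25 in LP Treg and 11.33 and 11.31 in LP Tconv (-2.65 ± 0.46, 6.28-fold lower, adjusted p = 0.00206). Gpr18, a receptor linked to intraepithelial lymphocytes in mice, read 9.39 and 9.70 in LP Treg and 11.31 and 11.72 in LP Tconv (-1.97 ± 0.32, 3.92-fold lower, adjusted p = 0.00106). Ccr9, the receptor for CCL25 that directs T cells to the small intestine, was bright in both populations, at 13.00 and 13.21 in LP Treg and 12.81 and 12.23 in LP Tconv (0.59 ± 0.60, adjusted p = 1).

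Chemokines gave 0 rises and 3 falls among 14 tested genes (median -0.21). Xcl1, which attracts cross-presenting dendritic cells, read 4.34 and 4.39 in LP Treg and 7.05 and 8.59 in LP Tconv (-3.45 ± 0.46, at least 10.9-fold lower, adjusted p = 0.000159). Ccl5 read 9.35 and 10.71 in LP Treg and 12.34 and 13.13 in LP Tconv (-2.71 ± 0.60, 6.52-fold lower, adjusted p = 0.0149), and Ccl1, the ligand of Ccr8, was at least 1.67-fold lower (-0.74 ± 0.18, adjusted p = 0.0265). Without some single arrays the adjusted p reached 0.314 for Ccl5 and 0.311 for Ccl1.

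Among integrins and adhesion genes, 3 of 31 tested rose, 2 fell and 26 did not pass (median 0.03). Itga1, a collagen-binding integrin chain of tissue-resident T cells, read 5.54 and 5.46 in LP Treg and 7.24 and 7.48 in LP Tconv (-1.86 ± 0.18, at least 3.63-fold lower, adjusted p = 4.12e-06). Sema4a, a semaphorin that binds neuropilin 1, read 4.69 and 5.18 in LP Treg and 8.77 and 8.06 in LP Tconv (-3.48 ± 0.42, at least 11.2-fold lower, adjusted p = 4.92e-05). Its receptor gene Nrp1 moved the other way, as given above. Cd81, a tetraspanin, rose 3.44-fold (1.78 ± 0.30, adjusted p = 0.00167). The gut integrin chains Itga4 and Itgb7 read 11.90 and 11.88, and 11.23 and 11.08, in LP Treg, and 11.78 and 11.50, and 10.19 and 11.95, in LP Tconv, with differences of 0.25 ± 0.36 and 0.09 ± 0.54.

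TNF receptors and TNF family ligands had calls in opposite directions. Of 20 tested receptor genes 4 rose and 0 fell (median 0.24), and of 12 tested ligand genes 0 rose and 4 fell (median -0.57). Of all tested genes, 1.41% were called higher and 1.29% lower. The rises of Tnfrsf9, Tnfrsf4 and Tnfrsf18 were already counted among the Treg identity genes, so they are no separate result of the receptor family. Tnfrsf9 (4-1BB) read 11.08 and 10.87 in LP Treg and 7.09 and 8.48 in LP Tconv (3.18 ± 0.40, 9.09-fold, adjusted p = 7.95e-05). Tnfrsf4 (OX40) read 12.38 and 12.01 in LP Treg and 9.39 and 9.52 in LP Tconv (2.74 ± 0.29, 6.70-fold, adjusted p = 1.59e-05). Both are costimulatory receptors. Tnfrsf1b (TNFR2) read 12.72 and 11.41 in LP Treg and 9.83 and 9.41 in LP Tconv (2.44 ± 0.39, 5.43-fold, adjusted p = 0.00107). Tnfrsf18 (GITR) read 12.23 and 11.93 in LP Treg and 10.11 and 10.80 in LP Tconv (1.62 ± 0.40, 3.08-fold, adjusted p = 0.0342), and its call was lost without some single arrays (adjusted p up to 0.311). Cd27 read 9.21 and 8.85 in LP Treg and 6.80 and 8.26 in LP Tconv (1.50 ± 0.48, adjusted p = 0.151).

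Among the ligands, Fasl, which triggers apoptosis through Fas, read 8.76 and 8.19 in LP Treg and 12.25 and 12.00 in LP Tconv (-3.65 ± 0.50, 12.6-fold lower, adjusted p = 0.00023). Tnfsf14 (LIGHT) read 5.54 and 5.53 in LP Treg and 8.34 and 8.66 in LP Tconv (-2.96 ± 0.32, at least 7.81-fold lower, adjusted p = 1.52e-05). Neither ligand had overlapping arrays. Tnfsf13b (BAFF), a B cell survival factor, was at least 2.51-fold lower (adjusted p = 0.00896) and Cd40lg, the helper signal to B cells, 1.75-fold lower (adjusted p = 0.0242), with adjusted p up to 0.193 and 0.208 without a single array.

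Immunoglobulin-family coreceptors gave 4 rises and 2 falls among 29 tested genes (median -0.02). Cd83, known from mature dendritic cells and activated lymphocytes, read 12.11 and 10.41 in LP Treg and 6.73 and 6.68 in LP Tconv (4.56 ± 0.49, 23.5-fold, adjusted p = 1.67e-05). The 2 LP Treg arrays differed by more than 1 log2 and both lay well above LP Tconv. Havcr2 (TIM-3) rose at least 4.55-fold (adjusted p = 0.0046) and Pdcd1lg2 (PD-L2) 2.46-fold (adjusted p = 0.0118), with adjusted p up to 0.0957 and 0.147 without a single array. Slamf7, a self-ligand receptor of cytotoxic and NK cells, read 5.69 and 5.79 in LP Treg and 7.69 and 8.31 in LP Tconv (-2.26 ± 0.19, at least 4.78-fold lower, adjusted p = 9.38e-07). Cd96 fell 2.80-fold (adjusted p = 0.0043, up to 0.0991 without a single array). Pdcd1 (PD-1) read 6.91 and 6.60 in LP Treg and 6.38 and 8.20 in LP Tconv, whose arrays enclosed those of LP Treg.

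Killer lectin and cytotoxic genes other than Klrg1 fell or did not pass. Of 19 tested, 1 rose, 6 fell and 12 did not pass, and the median was -0.51. Gzmk (granzyme K) read 6.84 and 7.02 in LP Treg and 10.17 and 11.43 in LP Tconv (-3.87 ± 0.45, 14.6-fold lower, adjusted p = 3.22e-05). Nkg7, a membrane protein of cytotoxic granules, read 9.48 and 10.17 in LP Treg and 12.24 and 12.48 in LP Tconv (-2.54 ± 0.48, 5.80-fold lower, adjusted p = 0.00487). Ctsw, a protease of cytotoxic cells, read 8.15 and 9.07 in LP Treg and 9.95 and 12.35 in LP Tconv, so that LP Tconv 1 minus LP Tconv 2 was -2.40 (-2.54 ± 0.51, 5.82-fold lower, adjusted p = 0.00766). The NK receptor chains Klrd1 (at least 6.96-fold lower, adjusted p = 0.0438) and Klrb1f (3.17-fold lower, adjusted p = 0.01) were called lower too. Without some single arrays the adjusted p reached 0.106 for Nkg7, 0.167 for Ctsw, 0.312 for Klrd1 and 0.194 for Klrb1f. Gzma read 11.98 and 12.45 in LP Treg and 12.20 and 11.94 in LP Tconv, with overlapping arrays (0.15 ± 0.42). Beside these genes, the 2 gamma-delta receptor segments chosen after their values were seen were also called lower. Trgv1 read 6.39 and 7.33 in LP Treg and 9.31 and 9.45 in LP Tconv (-2.52 ± 0.36, adjusted p = 0.000334), and Trgv4 read 6.46 and 6.87 in LP Treg and 8.69 and 8.37 in LP Tconv (-1.86 ± 0.35, adjusted p = 0.00445). Cd160, found on CD8, gamma-delta and NK cells, read 6.79 and 7.37 in LP Treg and 7.42 and 8.74 in LP Tconv (-1.002 ± 0.29, adjusted p = 0.0804), and its other probe sets differed by -2.10, -2.50 and -0.19. The summed intensity of the list of 10 such markers overlapped between the populations, as given above. That sum is mostly Gzma, so its overlap says little of the other members. The part of such cells in these falls was not tested.

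**Figure D3:**
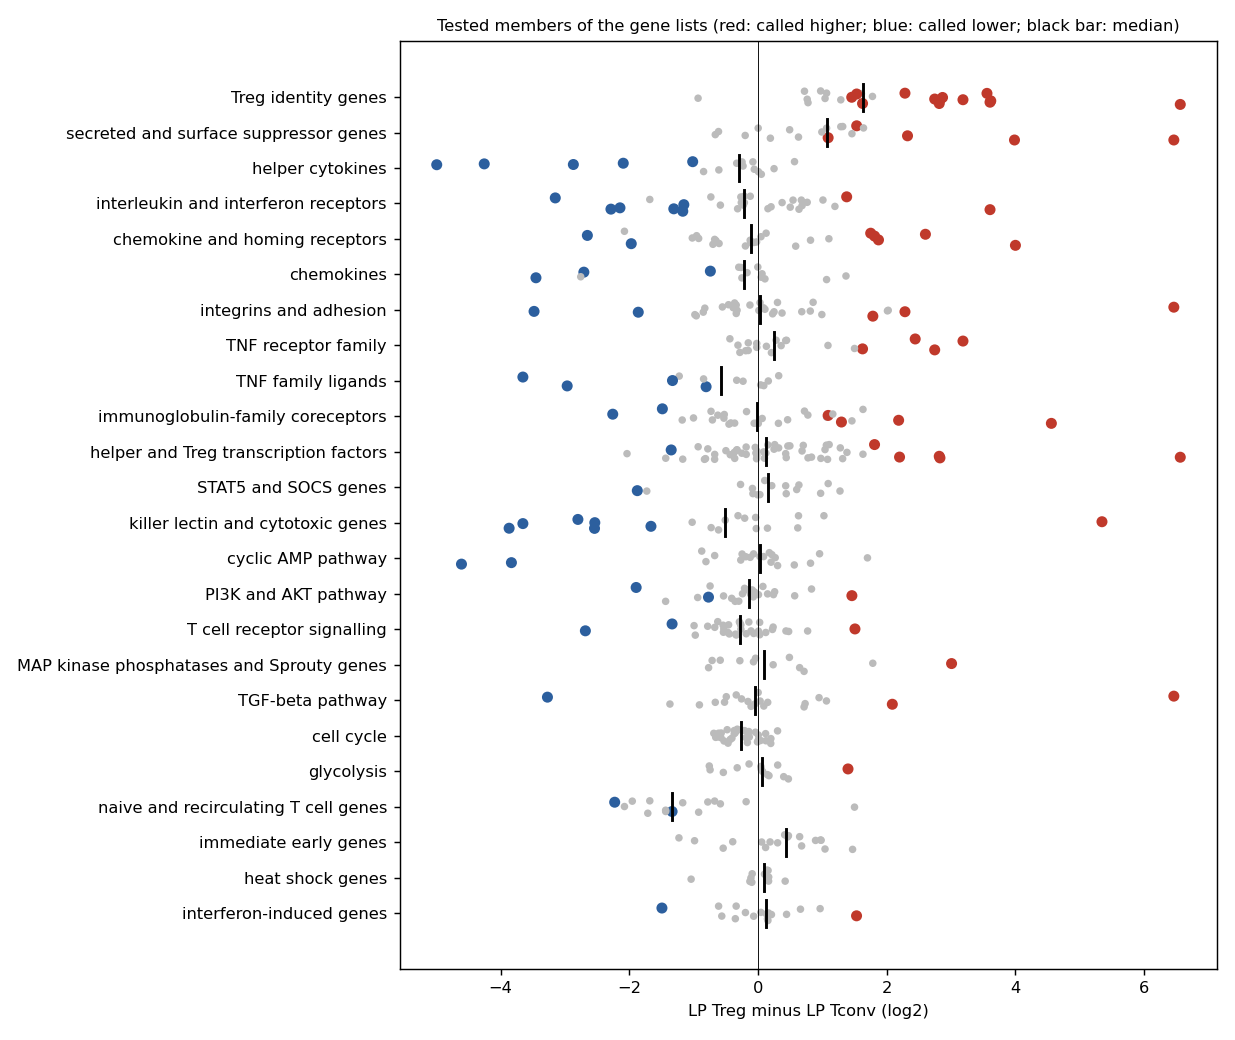
Difference between LP Treg and LP Tconv (log2) for the tested members of each gene list; red points were called higher, blue points called lower, grey points were not called and black bars are medians. Treg identity genes have a median of 1.62, naive and recirculating T cell genes one of -1.33, and the cell cycle genes lie close together at a median of -0.26.

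Of 53 tested transcription factors of helper and regulatory cells, 5 rose, 1 fell and 47 did not pass (median 0.12). The 5 include Foxp3, the gene behind the sort, and Ikzf2 and Ikzf4, already counted among the Treg identity genes. Beside Foxp3, Ikzf2 and Ikzf4 the rises were Nfil3, a repressor active in several lymphocyte lineages, which read 10.13 and 8.71 in LP Treg and 7.61 and 6.83 in LP Tconv (2.20 ± 0.45, 4.59-fold, adjusted p = 0.00854), and the nuclear receptor corepressor Nrip1 (1.81 ± 0.40, 3.51-fold, adjusted p = 0.0146). Ikzf1 (Ikaros) fell 2.55-fold (-1.35 ± 0.30, adjusted p = 0.0158), although a second probe set differed by 0.17. Without some single arrays the adjusted p reached 0.244 for Nfil3, 0.284 for Nrip1 and 0.291 for Ikzf1. Tbx21 (T-bet), the T helper 1 regulator, read 7.33 and 6.82 in LP Treg and 9.90 and 8.32 in LP Tconv (-2.04 ± 0.57, adjusted p = 0.0757). Gata3, the T helper 2 regulator, read 8.98 and 8.80 in LP Treg and 7.71 and 7.91 in LP Tconv (1.08 ± 0.38, adjusted p = 0.233). Neither passed, and Maf and Ahr, bright in both populations, differed by 0.50 ± 0.40 and -0.37 ± 0.41.

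Signalling genes held a few large differences. Of 21 tested genes of the cyclic AMP pathway, 0 rose and 2 fell (median 0.03), both of them phosphodiesterases, enzymes that break down cyclic AMP. Pde3b read 7.52 and 7.58 in LP Treg and 12.72 and 11.59 in LP Tconv (-4.61 ± 0.53, 24.4-fold lower, adjusted p = 2.99e-05). Pde7a read 8.03 and 8.36 in LP Treg and 12.09 and 11.96 in LP Tconv (-3.83 ± 0.28, 14.2-fold lower, adjusted p = 1.98e-07). Pde2a and Pde4b, further phosphodiesterases, did not pass: Pde2a read 10.94 and 12.17 in LP Treg and 10.78 and 10.42 in LP Tconv (0.96 ± 0.36, adjusted p = 0.306), and Pde4b overlapped between the populations (-0.12 ± 0.43).

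In the T cell receptor list, 1 of 33 tested genes rose, 2 fell and 30 did not pass (median -0.27). Themis, which tunes T cell receptor signals during thymic selection, read 7.69 and 8.12 in LP Treg and 10.48 and 10.69 in LP Tconv (-2.68 ± 0.28, 6.42-fold lower, adjusted p = 1.18e-05). The Rap1 exchange factor Rasgrp2 fell 2.52-fold (adjusted p = 0.0191) and the phosphatase Ubash3b, a brake on the receptor, rose 2.84-fold (adjusted p = 0.018), with adjusted p up to 0.225 and 0.191 without a single array. In the PI3K and AKT list 1 of 24 tested genes rose and 2 fell (median -0.15). The AKT phosphatase Phlpp1 read 8.08 and 8.32 in LP Treg and 6.69 and 6.80 in LP Tconv (1.46 ± 0.19, 2.75-fold, adjusted p = 0.000115). Its relative Phlpp2 fell 1.70-fold (adjusted p = 0.0226) and Pik3r5, a regulatory subunit of PI3K gamma, 3.71-fold (adjusted p = 0.00432), with adjusted p up to 0.253 and 0.103 without a single array.

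Of 16 tested STAT5 and SOCS genes, 0 rose and 1 fell (median 0.16). Pim2, a survival kinase, read 7.48 and 7.43 in LP Treg and 9.55 and 9.10 in LP Tconv (-1.88 ± 0.32, 3.67-fold lower, adjusted p = 0.00162). Of 12 tested MAP kinase phosphatase and Sprouty genes, 1 rose (median 0.10). Dusp4 read 11.72 and 10.12 in LP Treg and 8.70 and 7.14 in LP Tconv (3.01 ± 0.77, 8.04-fold, adjusted p = 0.0417). Its 2 arrays were over 1.5 log2 apart in each population, and without LP Treg 1 its adjusted p was 0.568.

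For state and stress genes, the counts stand beside the 2.70% of all tested genes that were called. At that share a list of this size would hold few calls or none. Of 33 tested cell cycle genes 0 were called by limma and 1 had an unadjusted p under 0.05 (median -0.26), and the proliferation marker Mki67 read 9.81 and 10.22 in LP Treg and 10.17 and 10.79 in LP Tconv (-0.47 ± 0.82). Of 15 tested naive and recirculating T cell genes 0 rose and 2 fell, but 14 of 15 had a negative difference and the median was -1.33. At an unadjusted p under 0.05 (limma), 10 of the 15 were lower and 1 was higher in LP Treg. Over all 12516 tested genes, 1090 had such a p in either direction. Igfbp4 read 9.73 and 9.48 in LP Treg and 12.09 and 11.57 in LP Tconv (-2.23 ± 0.38, 4.68-fold lower, adjusted p = 0.00169), and the other call was Rasgrp2. Ccr7, the lymph node homing receptor, read 8.03 and 7.09 in LP Treg and 9.21 and 10.06 in LP Tconv (-2.08 ± 0.58, adjusted p = 0.0737), and Lef1 differed by -1.17 ± 0.40 (adjusted p = 0.197). Of 14 tested glycolysis genes 1 rose, the glucose transporter Slc2a3 (2.64-fold, adjusted p = 0.00676, and 0.0995 without LP Treg 1), with a median of 0.06. Of 17 tested interferon-induced genes 1 rose, Gbp3 (2.89-fold, adjusted p = 0.00224), and 1 fell, Oasl2 (at least 2.81-fold, adjusted p = 0.00186), with a median of 0.13. Without some single arrays their adjusted p reached 0.0563 and 0.0583. Of 18 immediate early genes (median 0.44) and 11 heat shock genes (median 0.10), 0 were called by limma, and 1 of each list had an unadjusted p under 0.05.

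The 20 largest rises also held genes outside these lists. Neb, a giant protein of skeletal muscle filaments, read 10.10 and 9.62 in LP Treg and 5.60 and 5.50 in LP Tconv (4.31 ± 0.30, at least 19.8-fold, adjusted p = 1.35e-07). Ky, a protease-like muscle protein, read 10.14 and 9.70 in LP Treg and 6.09 and 6.07 in LP Tconv (3.84 ± 0.25, at least 14.3-fold, adjusted p = 6.01e-08). Both were dim on the 2 LP Tconv arrays. A second Ky probe set, dim on all 4 arrays, did not separate the populations, and the mean of both differed by 1.92. Mmp9, a matrix protease, read 10.38 and 10.69 in LP Treg and 6.68 and 7.81 in LP Tconv (3.29 ± 0.33, 9.77-fold, adjusted p = 7.64e-06). Prg4 (lubricin) rose 8.87-fold, the phosphatase Ppm1l 9.91-fold and the sorting nexin Snx9 7.32-fold. Fmnl2, a formin that builds actin filaments, rose at least 12.3-fold, Nckap5 at least 9.25-fold and Rin2, an exchange factor for Rab5, at least 7.79-fold.

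The 20 largest falls outside the lists began with Pxylp1, a phosphatase of proteoglycan synthesis, which read 3.68 and 3.27 in LP Treg and 7.42 and 6.84 in LP Tconv (-3.65 ± 0.39, at least 12.6-fold lower, adjusted p = 1.67e-05). Vipr1, a receptor for vasoactive intestinal peptide, a neuropeptide of the gut, read 5.37 and 5.27 in LP Treg and 7.73 and 9.17 in LP Tconv (-3.14 ± 0.39, at least 8.79-fold lower, adjusted p = 8.1e-05). Ryr1, a calcium release channel known from skeletal muscle, read 5.22 and 5.15 in LP Treg and 7.96 and 8.22 in LP Tconv (-2.90 ± 0.23, at least 7.46-fold lower, adjusted p = 3.25e-07). In these genes LP Treg was dim on both arrays. Averaged over all probe sets the differences were -1.51 for Pxylp1, -1.52 for Vipr1 and -1.42 for Ryr1. Lypd6b was at least 10.7-fold lower, Tdrp at least 9.01-fold, Mctp2 at least 8.52-fold and Smim3 at least 7.20-fold.

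**Figure D4:**
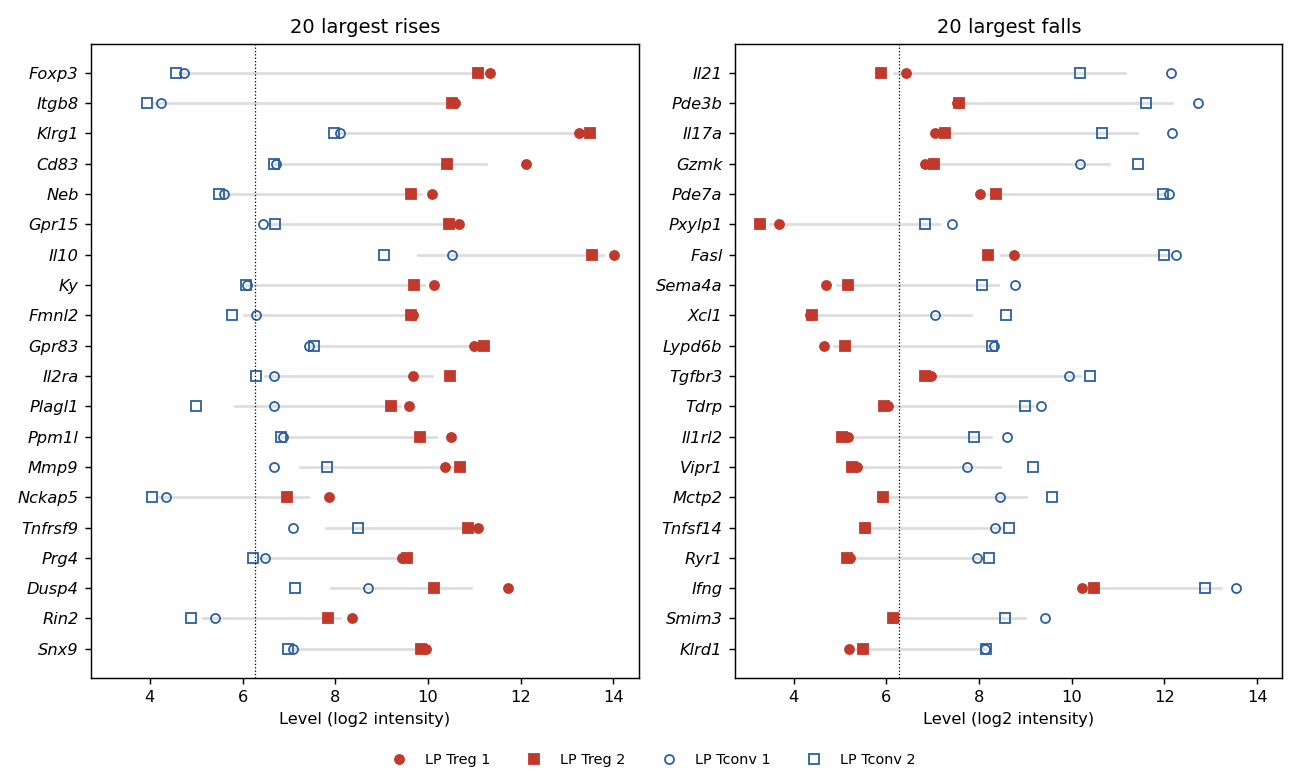
Levels (log2 intensity) on the 2 LP Treg arrays (filled red) and the 2 LP Tconv arrays (open blue) for the 20 largest rises and the 20 largest falls among called genes; the dotted line is the filter at 6.27. Only genes without overlap between the populations could be taken, a condition that all 338 called genes met. The 2 LP Tconv arrays lie furthest from each other for Il21.

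The homeostatic and DEC pairs, which share no array with the gut pair, show where the gut difference departed from that of other sorted pairs. The homeostatic pair was split by Foxp3-GFP and the DEC pair by CD25. The homeostatic pair itself had 220 called genes (1.76% of those tested), 94 higher (0.751%) and 126 lower (1.01%) in Foxp3+ cells. The DEC pair had 62 (0.495%), 50 higher (0.399%) and 12 lower (0.0959%) in CD25+ cells. The gut difference was called apart from the homeostatic one in 97 genes (0.775%), more positive in 70 and more negative in 27, and from the DEC one in 126 genes (1.01%), more positive in 51 and more negative in 75. The split for the DEC pair depended on the scaling: with quantile normalization it was 69 more positive and 50 more negative. Of the 338 genes called in the gut, 75 were called apart from the homeostatic difference, 111 from the DEC difference and 46 from both, and of these 46, 30 were higher and 16 lower in LP Treg. Without LP Tconv 1 the counts of 97 and 126 became 157 and 396, and without LP Treg 1 they became 55 and 45.

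Foxp3 differed by 6.56 in the gut pair and 5.66 in the homeostatic pair, which were not called apart (0.90 ± 0.47, adjusted p = 1). Its DEC difference was 2.49, lower by 4.07 ± 0.46 (adjusted p = 0.00016), in a pair sorted by CD25. Il2ra differed by 3.60, 4.00 and 3.77 in the gut, homeostatic and DEC pairs, and was not called apart (-0.39 ± 0.50 and -0.17 ± 0.48, adjusted p = 1 and 0.935). Il2ra encodes CD25, by which the DEC pair was sorted, so its DEC value checks that sort and is no further result. Itgae differed by 2.01, 3.09 and 2.77 in the same order.

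Itgb8 differed by 0.09 in the homeostatic pair (adjusted p = 1) and by 2.26 in the DEC pair (adjusted p = 0.0065). The gut difference exceeded them by 6.37 ± 0.62 (adjusted p = 3.68e-05) and 4.20 ± 0.61 (adjusted p = 0.00132). Il10 differed by 0.09 in the homeostatic pair, 3.90 ± 0.64 less than in the gut (adjusted p = 0.00428), and by 1.83 in the DEC pair, which was not called apart (2.16 ± 0.63, adjusted p = 0.158). Klrg1 differed by 2.35 and 1.17 in the homeostatic and DEC pairs, less than in the gut by 3.00 ± 0.53 (adjusted p = 0.00706) and 4.18 ± 0.52 (adjusted p = 0.000248). Il17a, which was low in both other pairs, differed more negatively in the gut by 4.00 ± 0.42 than in the homeostatic pair and by 4.32 ± 0.41 than in the DEC pair (adjusted p = 7.68e-05 and 3.3e-05). Il21 fell further in the gut than in the DEC pair (-4.64 ± 0.88, adjusted p = 0.0122), while its departure from the homeostatic pair did not pass (-2.87 ± 0.90, adjusted p = 0.261).

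Several receptors were called apart from both other pairs. Gpr15 differed by 1.68 and 0.09 in the homeostatic and DEC pairs, so the gut difference exceeded them by 2.32 ± 0.49 and 3.91 ± 0.47 (adjusted p = 0.0257 and 0.000217). For Ccr4 the excess was 1.80 ± 0.29 and 1.66 ± 0.29 (adjusted p = 0.00395 and 0.00576), for Ccr8 2.41 ± 0.39 and 1.83 ± 0.38 (adjusted p = 0.00399 and 0.0248) and for Tnfrsf4 1.69 ± 0.38 and 1.81 ± 0.37 (adjusted p = 0.0463 and 0.0213). Ikzf2 likewise exceeded both by 1.24 ± 0.24 and 1.91 ± 0.23 (adjusted p = 0.0126 and 0.000217). On the falling side, Il18r1, Il12rb2, Itga1, Gzmk, Gpr18, Themis, Slamf7 and Xcl1 were called more negative in the gut than in both pairs. For Il18r1 the departures were -2.14 ± 0.35 and -1.54 ± 0.34 (adjusted p = 0.00403 and 0.0348), and for Ifng -2.53 ± 0.53 and -2.27 ± 0.52 (adjusted p = 0.0273 and 0.0404).

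Ky was the gene with the smallest p in both tests. It differed by 0.31 and 0.13 in the homeostatic and DEC pairs, and the gut excess was 3.52 ± 0.32 and 3.71 ± 0.31 (adjusted p = 3.62e-05 and 1.09e-05). Ky was not dim in all lymph node Treg: it averaged 9.92 in LP Treg, 9.07 in the CD103+Klrg1+ subset, 7.75 in the CD103+Klrg1- subset, 6.47 in the CD103-Klrg1- subset and 6.08 in LP Tconv. Matn2, an extracellular matrix protein, was higher in LP Treg (2.66 ± 0.33, at least 6.33-fold) and lower in homeostatic Foxp3+ cells (-1.84, adjusted p = 0.00074), and the differences were 4.50 ± 0.43 apart (adjusted p = 3.68e-05). Dhrs3, a retinal reductase, also had opposite directions, 2.15 ± 0.31 in the gut and -1.23 in the homeostatic pair, 3.38 ± 0.41 apart (adjusted p = 0.000284). Cd83 differed by -0.73 in the homeostatic pair, 5.28 ± 0.64 below the gut difference (adjusted p = 0.000284), and by 1.81 in the DEC pair, 2.75 ± 0.62 below it (adjusted p = 0.0378).

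Some genes that fell in the gut had a similar value in the homeostatic pair. Ryr1 differed by -2.90 in the gut and -2.95 in the homeostatic pair (0.05 ± 0.29 apart, adjusted p = 1), but by -0.09 in the DEC pair (-2.81 ± 0.29, adjusted p = 6.6e-05). Tnfsf14 differed by -2.96 in the gut, -3.88 in the homeostatic pair and -0.76 in the DEC pair, and was called apart from the DEC pair alone (-2.21 ± 0.40, adjusted p = 0.00896). Cxcr6 had -2.65, -3.37 and -0.10 in that order, and was again called apart from the DEC pair (-2.55 ± 0.58, adjusted p = 0.0379) and not from the homeostatic pair (0.72 ± 0.59, adjusted p = 1). Pde7a differed by -3.83 in the gut, -2.91 in the homeostatic pair and -0.95 in the DEC pair, and was called apart from the DEC pair (-2.88 ± 0.36, adjusted p = 0.000248).

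**Figure D5:**
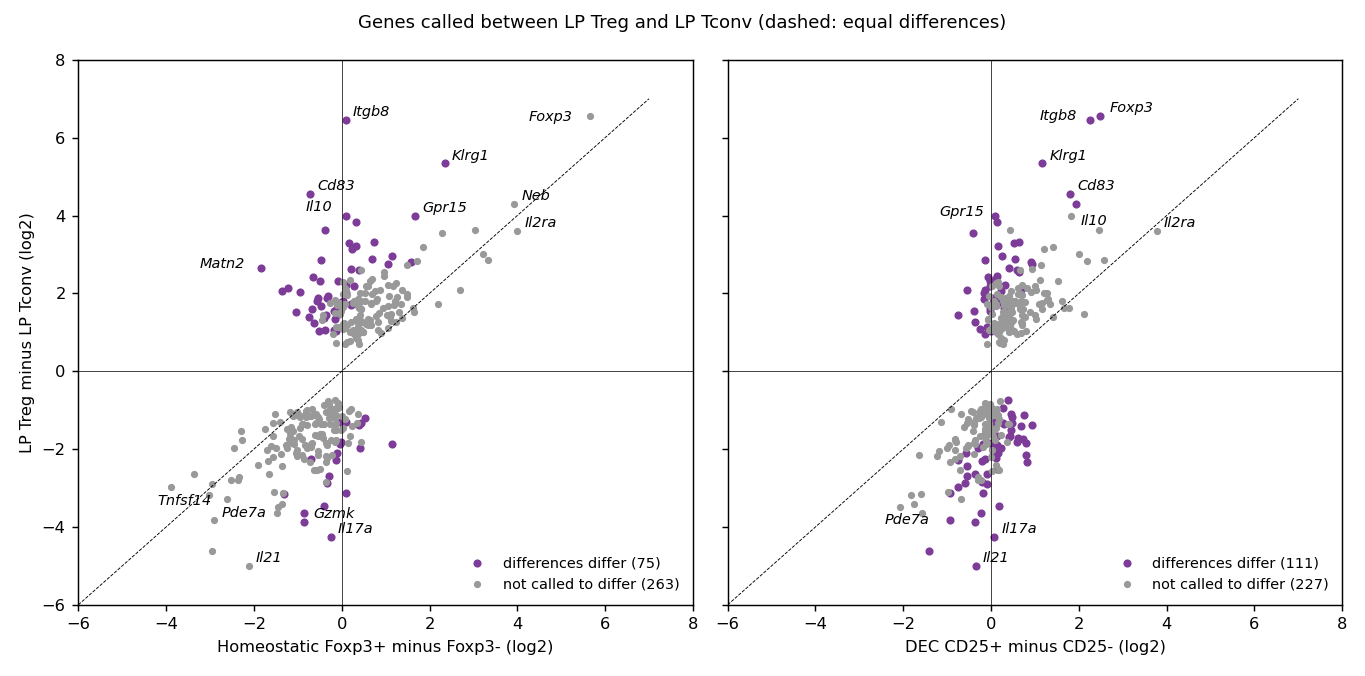
Difference between LP Treg and LP Tconv (log2, vertical) against the homeostatic Foxp3+ minus Foxp3- difference (left) and the DEC CD25+ minus CD25- difference (right) for the 338 called genes; purple points were called to differ (75 left, 111 right) and the dashed line marks equal differences. Itgb8 and Il17a lie far from the dashed line in both panels, and Foxp3 lies nearer to it on the left than on the right.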

How the data were processed

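Sorted CD4+ T cells of mice filled 23 Affymetrix M430v2 arrays, each from pooled animals. Trizol RNA went through 2 rounds of MessageAmp amplification, per the labels' protocols. The values are the authors' deposited intensity values, made with RMA per the submitters' processing notes, on a linear scale. Their log2 was taken with no pseudocount. The platform annotation named 34945 of 45101 probe sets by 1 symbol, and each of 18193 genes was read from its brightest probe set by the mean of the 23 arrays. A gene was tested when 1 group mean or more exceeded 77.0 intensity units (6.27 log2), the median of all values, which left 12516 genes. limma 3.58.1 in R 4.3.3 fitted a mean for each of 9 groups (14 residual and 3.48 prior degrees of freedom), two-sided. The script was tested on simulated data. Python 3.11.15, pandas 2.3.3 and matplotlib 3.10.9 made tables and figures. Array number limits the precision.

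Named genes were the 6 markers, the sort genes, the 20 largest rises and falls, called list members with up to 6 uncalled ones that are brightest or define the list, and the 10 smallest p of each difference between pairs. Clone names and receptor variable segments were counted only, except Trgv1 and Trgv4, which were added after their values were seen. The members, lists and rule were chosen with earlier results of these data known. Some listed genes are not analysed here. Alternatives were another normalization, filter, probe set rule and set of arrays, array weights, a replicate block, leaving out each LP array in turn, and leaving out both dim DEC CD25- arrays.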

Additional observations from a re-analysis of the deposited data

Results flagged for a closer look

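The gut difference was set apart from another pair by a test of the difference itself in the following results (limma, adjusted p under 0.05, log2). Against the homeostatic pair 97 genes differed, and against the DEC pair 126. Against the homeostatic pair the gut difference was higher by 6.37 in Itgb8, 5.285 in Cd83, 4.50 in Matn2, 3.90 in Il10, 3.52 in Ky, 3.38 in Dhrs3, 3.27 in Arfgef3, 3.00 in Klrg1, 2.57 in Ppm1l and 2.41 in Daw1. It differed by -4.00 in Il17a and by -1.82 in Itga1. In Arfgef3 the gut pair was dim on all 4 arrays and the homeostatic pair differed, so its value belongs to the homeostatic pair.

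Against the DEC pair the gut difference was higher by 4.205 in Itgb8, 4.18 in Klrg1, 4.07 in Foxp3, 3.91 in Gpr15, 3.71 in Ky, 2.68 in Ppm1l, 2.33 in Snx9 and 2.18 in Khdc1a. It differed by -4.645 in Il21, -4.32 in Il17a, -2.81 in Ryr1, -2.26 in B4galnt2 and -2.11 in Slamf7. The value for Foxp3 is no further result, since the gut pair was split by Foxp3-GFP and the DEC pair by CD25. The 2 pairs also differ in mouse strain, tissue and cell transfer, which cannot be told apart from the sorts. Khdc1a was dim in both gut populations, at 4.91 and 5.33 in LP Treg and 3.27 and 2.93 in LP Tconv. In the DEC pair 2 of the 4 CD25- arrays had low median intensity. Their 3' minus 5' signal of Gapdh was 6.59 and 2.79 log2, against 3.13 and 3.92 on the other CD25- arrays. That of Actb was 4.04 and 3.63 log2, against 1.81 and 3.03. Without the 2 dim arrays all 13 genes listed against the DEC pair were still called. Il21 stood at -3.86 (limma, adjusted p = 0.0298) and Foxp3 at 3.80 (adjusted p = 0.000626).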

How the results depend on the processing

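With 2 pools a side, single arrays move the number of calls. The gut count of 338 (177 higher, 161 lower in LP Treg) ranged from 173 to 513 when 1 LP array was left out, was 17 with the 4 LP arrays fitted alone, 221 with array weights (1.06 for LP Treg, 0.36 for LP Tconv) and 557 without the 2 dim DEC CD25- arrays. The count of 97 against the homeostatic pair ranged from 55 to 157 when 1 LP array was left out and was 179 without those dim arrays. The count of 126 against the DEC pair ranged from 45 to 396 and was 80 with array weights. Its split of 51 more positive and 75 more negative became 69 and 50 with quantile normalization, 80 and 69 with cyclic loess and 92 and 70 without the dim arrays, which moved the median of all genes from -0.18 to 0.07, 0.02 and -0.01. Of the 93 named genes called in the gut, 16 were called in all 15 alternatives, 47 were lost with the 4 LP arrays alone and in no other, and 63 kept the call without each single array; 0 were reversed. The 47 include the markers Il10, Il17a and Il21, each at adjusted p = 0.122 (limma) with the 4 LP arrays alone. Levels near 6.27 log2 limit the folds.

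The labels do not pair the LP arrays, and same-number residuals correlated at -0.07. A replicate block gave 615 calls in the gut, 217 against the homeostatic pair and 245 against the DEC pair.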

Other observations

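Some single called genes outside the lists were picked after their values were seen, so they say nothing of the groups they belong to. Casp1, the protease that matures IL-1 beta and IL-18, differed by -2.45, Casp4 by -1.90 and Irak3 by -1.31, while Il18 differed by 1.83, Tirap by 1.78, Tlr1 by 1.35 and Irak2 by 0.70. Among single enzymes that act on glycans, Cmah differed by -2.56, St6galnac2 by -1.96, St8sia6 by -1.95, B4galnt2 by -2.10 and B4galnt4 by -1.38. Second probe sets of Tirap and St6galnac2 differed by 0.21 and 0.04, and the other probe sets of B4galnt2 were dim on all 4 arrays. The ion channel relatives Tmem176a and Tmem176b differed by -1.68 and -2.20. Nebl, a relative of Neb, differed by -2.63, against 4.31 for Neb.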
